A study of Mus musculus with 7 samples.

Results

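Primed pluripotent stem cells that had been made from fibroblasts were compared with primed cells that had been made from embryonic stem cells, 1 library each, over all genes. The first library, 5C-Oct4GFP+ (primed), came from cells of the OG2 line and the second, R1 ESCs-primed, from the R1 embryonic stem cell line. A gene entered the comparison when its level reached 5 TPM (transcript abundance, from reads per gene length scaled to a common total) in either library, which kept 11017 of 29267 genes, 10592 of them protein coding. The difference of a gene was its log2(TPM + 1) in the first library minus that in the second, and a gene was called higher or lower at a difference of at least 1, a 2-fold change on that scale.

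The study reprogrammed OG2 mouse embryonic fibroblasts, which carry a GFP reporter under the Oct4 promoter and its distal enhancer, with retroviral Oct4, Sox2, Klf4 and c-Myc in a chemically defined medium called 5C. GFP-positive cells were sorted on day 15 and then grown in primed medium to give the 5C-Oct4GFP+ (primed) cells. The R1 cells were turned to the primed state on fibroblast feeders in medium with bFGF and activin A, and were kept afterwards without feeders with CHIR99021, a GSK3 inhibitor, and IWR-1, a tankyrase inhibitor. The labels give 20 passages for each library, while the study also describes a shorter culture for cells of this name, and the labels were followed. The name keeps "GFP+" from the sort, although the study describes cells in primed medium as having lost the reporter's signal. The 5 other libraries were the GFP-positive and GFP-negative cells sorted from 5C and from conventional mES medium (named mES-Oct4GFP+ and mES-Oct4GFP- for the latter, and likewise with 5C for the former) and the 5C cells grown in naive medium (5C-Oct4GFP+ (naive)), and they are given only as levels set beside the 2 primed libraries. Cell line, origin, vectors and library differ together between the 2 primed libraries, as may medium and feeder history, and these cannot be told apart.

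Naive pluripotency is the state of the blastocyst's inner cell mass and of conventional mouse embryonic stem cells, and primed pluripotency is that of the epiblast after implantation. Primed cells keep Pou5f1 and Sox2, switch off naive factors such as Zfp42, Esrrb and Klf4, express Fgf5 and Otx2, depend on FGF and activin, and carry low levels of genes of the primitive streak. Their genome is more methylated than that of naive cells, and many genes of the germline and of the naive state are silent in them.

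The 5C-Oct4GFP+ (primed) library held 11496615 estimated counts and the R1 ESCs-primed library 7188043, within a range of 6108252 to 11496615 over the 7 libraries. For a gene of median length, 3 counts were worth 0.285 TPM in the first and 0.466 TPM in the second. With 1 library for each kind of cell there was no replicate check, so no p-value is given, and the 95% intervals beside ratios of TPM are exact intervals (Clopper-Pearson) for counting error only.

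Of the 11017 genes, 534 (4.85%) were called, 164 (1.49%) higher and 370 (3.36%) lower in 5C-Oct4GFP+ (primed). The other 10483 genes (95.2%) differed by less than 2-fold. The median difference over all genes was -0.02, the middle 50% of genes lay between -0.19 and 0.15, and 90% lay between -0.76 and 0.58. The lower genes were also more often far apart, since 68 lower and 16 higher genes reached 4-fold, and 20 lower and 4 higher genes reached 8-fold. The interval of the ratio left out 1 for 155 of the 164 higher and 360 of the 370 lower genes. At the threshold, Gm26829 stood just inside with a difference of 1 and Cib2 just outside with 0.996, and on the lower side Arhgdib stood inside with -1 and Gm37795 outside with -0.998. The plot of all genes shows that the highest-expressed genes lay close to the diagonal and that the lower genes reached further from it than the higher ones.

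**Figure D1:**
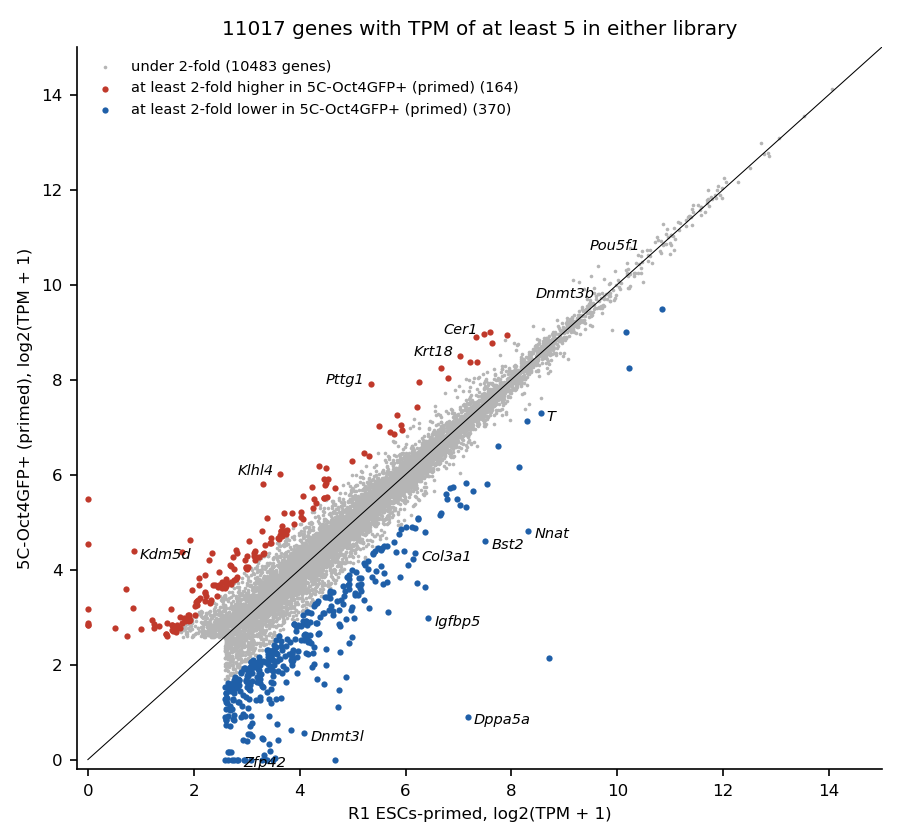
Level of each of 11017 genes in R1 ESCs-primed (x axis) and 5C-Oct4GFP+ (primed) (y axis), both as log2(TPM + 1), 1 library each. Red points are the 164 genes called higher and blue points the 370 called lower in 5C-Oct4GFP+ (primed), grey points the 10483 others, and the line marks equal levels. Dppa5a, Nnat and Igfbp5 lie far below the line and Pou5f1 and Dnmt3b lie on it.

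Most core pluripotency genes differed by less than 2-fold between the 2 libraries. Pou5f1, which encodes Oct4, stood at 1698 TPM in 5C-Oct4GFP+ (primed) and 1503 TPM in R1 ESCs-primed, a ratio of 1.13 (1.10 to 1.16). Sox2, its partner on DNA, stood at 92.8 and 81.2 TPM, and Nanog, another core factor, at 118 and 131 TPM. Sall4, Lin28a, Utf1, Tdgf1 and L1td1 all differed by less than 2-fold. Of 15 core pluripotency genes compared, 13 were not called, and the median difference was 0.05. The 2 called, Dppa2 and Dppa4, were lower (13.3%, against 3.36% of all genes compared) and are described below. Both genes reached 5 TPM only in R1 ESCs-primed, so the minimum itself fixed the sign of their differences. Reads from the retroviral Oct4, Sox2, Klf4 and c-Myc cannot be told apart from those of the endogenous genes.

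Of 20 genes of the formative and primed states, 1 (5%) was higher and none lower, with a median difference of -0.06. Among all genes compared 1.49% were higher and 3.36% lower. Fgf5, a secreted growth factor that marks the post-implantation epiblast, stood at 175 TPM in 5C-Oct4GFP+ (primed) and 139 TPM in R1 ESCs-primed, against 0.09 TPM in the cells grown in naive medium. Otx2, a transcription factor of the primed network, stood at 214 and 134 TPM, a difference of 0.67. The de novo methyltransferase gene Dnmt3b was at 844 and 823 TPM, a ratio of 1.03 (1.00 to 1.05). Both libraries were thus far from the naive one in these genes and close to each other. The gene called was Krt18, a keratin, at 361 and 129 TPM. Dnmt3a, the other de novo methyltransferase of the list, was below the threshold at 82.8 and 136 TPM, a difference of -0.71.

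Several genes of the naive state were at or near 0 in 5C-Oct4GFP+ (primed) and counted in R1 ESCs-primed. Dppa5a, an RNA-binding protein gene of the naive state on chromosome 9 (78367052 to 78368177, minus strand, GRCm38), had 0.87 TPM (3 counts) in 5C-Oct4GFP+ (primed) and 143 TPM in R1 ESCs-primed, 164-fold more (55.6 to 800). Of the mES libraries the GFP-positive held 3754 TPM and the GFP-negative 7.06 TPM, of the 5C libraries the GFP-positive held 4714 TPM and the GFP-negative 110 TPM, and the naive-medium library held 3631 TPM. R1 ESCs-primed thus held a trace of the naive level, and 5C-Oct4GFP+ (primed) was the lowest of the 7 libraries. Zfp42, which encodes the naive marker Rex1, had no count in 5C-Oct4GFP+ (primed), where 3 counts would be 0.276 TPM, and 6.02 TPM in R1 ESCs-primed, at least 21.8-fold higher with 3 counts as the floor of the library at 0. Zfp42 stood at 219 to 355 TPM in the GFP-positive libraries and the naive-medium library, and at 1.31 and 14.1 TPM in mES-Oct4GFP- and 5C-Oct4GFP-. Rbmxl2, a germ-cell relative of an X-linked splicing protein gene, had no count in 5C-Oct4GFP+ (primed) and 6.13 TPM in R1 ESCs-primed, at least 18.0-fold higher.

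The same order was seen for several other genes of the naive and germ cell programmes. Gdf3, a ligand of the TGF-beta family, stood at 0.14 and 9.81 TPM, 70.0-fold higher in R1 ESCs-primed (16.8 to 529) on 1.81 estimated counts in 5C-Oct4GFP+ (primed). Dppa4, a chromatin protein of pluripotent cells and the early embryo, stood at 0.54 and 13.3 TPM, 24.5-fold higher in R1 ESCs-primed (10.1 to 77.7). Its neighbour and partner Dppa2 stood at 1.27 and 9.98 TPM, 7.85-fold higher in R1 ESCs-primed (4.46 to 14.7). In both genes 5C-Oct4GFP+ (primed) stood above mES-Oct4GFP-, at 0.17 TPM for Dppa4 and 0.12 TPM for Dppa2, and below the GFP-positive and naive-medium libraries, at 53.9 to 260 TPM. Dnmt3l, the catalytically inactive cofactor of the de novo methyltransferases, stood at 0.47 TPM (2 counts) and 16.0 TPM, 34.3-fold higher in R1 ESCs-primed (9.25 to 287), against 525 TPM in 5C-Oct4GFP+, and its effective length differed between the primed libraries by -1.22 on the log2 scale. Tex19.1, which restrains transposons in germ cells, stood at 2 and 5.44 TPM. Tdh, the threonine dehydrogenase that mouse embryonic stem cells use to break down threonine, stood at 4.18 and 18.4 TPM against 481 to 725 TPM in the 4 libraries of 5C and mES origin other than mES-Oct4GFP-, which held 34.6 TPM.

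The promoters of Zfp42, Rbmxl2 and Dnmt3l are shown because these genes were at or near 0 in 5C-Oct4GFP+ (primed) and counted in R1 ESCs-primed, and to show their density of CG, the dinucleotide that is methylated in mammals. Each is the reference sequence of RefSeq (GRCm38.p6) from 250 bases before to 50 after the gene's start, 5′ to 3′ on the gene's strand, with every CG in capitals.
Zfp42, chr8:43306960-43307259, minus strand: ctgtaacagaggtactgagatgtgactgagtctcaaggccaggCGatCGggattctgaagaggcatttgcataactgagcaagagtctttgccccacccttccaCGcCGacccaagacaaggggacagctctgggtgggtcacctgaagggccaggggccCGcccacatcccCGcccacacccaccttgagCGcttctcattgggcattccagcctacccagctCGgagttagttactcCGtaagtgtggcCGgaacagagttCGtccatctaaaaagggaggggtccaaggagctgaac
Rbmxl2, chr7:107209195-107209494, plus strand: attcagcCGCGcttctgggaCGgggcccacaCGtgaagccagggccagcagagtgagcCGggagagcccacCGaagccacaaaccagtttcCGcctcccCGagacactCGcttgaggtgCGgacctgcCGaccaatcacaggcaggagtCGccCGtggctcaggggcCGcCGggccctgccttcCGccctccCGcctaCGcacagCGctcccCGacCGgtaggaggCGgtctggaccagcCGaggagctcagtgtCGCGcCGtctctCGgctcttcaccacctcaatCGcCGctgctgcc
Dnmt3l, chr10:78042037-78042336, plus strand: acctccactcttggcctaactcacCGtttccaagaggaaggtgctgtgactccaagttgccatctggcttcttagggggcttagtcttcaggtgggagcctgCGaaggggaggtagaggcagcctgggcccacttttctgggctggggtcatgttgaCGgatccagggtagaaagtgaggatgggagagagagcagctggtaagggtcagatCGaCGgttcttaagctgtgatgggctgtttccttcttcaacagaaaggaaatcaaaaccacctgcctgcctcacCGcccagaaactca
CG, which reads the same on both strands, was found 11 times in the Zfp42 window, 29 times in that of Rbmxl2 and 6 times in that of Dnmt3l. Over all 32851 promoter windows of this length the median was 7, 43.5% held at least 10 and 94.6% held at least 1. Over the genes compared, of which 8552 of 11017 had a matched window, the median was 22 and 87.5% held at least 10, so that Zfp42 lay above the first median and below the second. Methylation itself was not measured in these libraries. Counts of CG over the called genes are not given, because a window was matched for only 228 of the 370 lower genes and the check is void at that share.

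Of the 20 genes of the naive list, 8 reached 5 TPM in either primed library. Of these 4 (50%) were lower and 1 (12.5%) higher, against 3.36% and 1.49% of all genes compared, with a median difference of -1.07. The other 12 stayed below 5 TPM in both, such as Esrrb at 1.00 and 3.28 TPM, Tbx3 at 0.7 and 1.53 TPM, Fbxo15 at 0.58 and 4 TPM and Nr0b1 at 0 and 2.85 TPM. Dppa5a, Gdf3, Zfp42 and Klf2 reached 5 TPM only in R1 ESCs-primed, so the minimum itself fixed the sign of their differences. Spp1, a secreted phosphoprotein of bone and embryonic stem cells, was the fourth lower gene and differs from the rest of the list in level, at 717 TPM in 5C-Oct4GFP+ (primed) and 1840 TPM in R1 ESCs-primed. Klf4, one of the transduced factors, was the higher one, at 12.2 and 5.01 TPM, 2.42-fold (1.79 to 3.33), and at 138 to 1613 TPM in the other libraries. Fgf4 and Klf2 were not called, at 6.93 and 11.2 TPM and at 4.84 and 9.09 TPM. The plot of naive, core and primed genes shows the pattern across all 7 libraries.

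**Figure D2:**
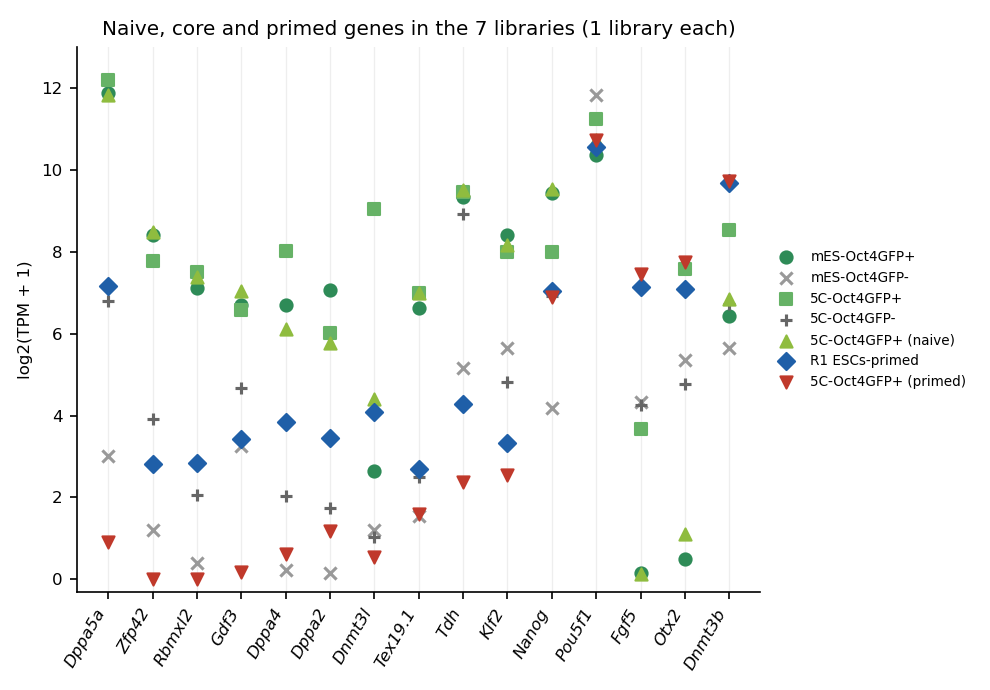
Level, as log2(TPM + 1), of 15 genes in the 7 libraries, 1 point for each library. For Dppa5a, Zfp42, Rbmxl2, Gdf3, Dppa4 and Dnmt3l the red triangle of 5C-Oct4GFP+ (primed) lies at 0 to 0.9 and the blue diamond of R1 ESCs-primed between 2.8 and 7.2. For Nanog, Pou5f1, Fgf5, Otx2 and Dnmt3b the 2 lie within 2-fold of each other, with Otx2 the furthest apart.

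In all, 49 of the 370 lower genes stood below 1 TPM in 5C-Oct4GFP+ (primed), and 11 of the 164 higher genes stood below 1 TPM in R1 ESCs-primed. A compared gene below 1 TPM in 1 library had at least 5 TPM in the other. The minimum thus fixed the call and the direction of each such gene. Besides the naive genes, the 49 included Arg1, the urea-cycle arginase, at 0.34 and 11.1 TPM, and En2, a homeobox gene of the midbrain and hindbrain, at 0.37 and 8.77 TPM. Parp12, an interferon-induced ADP-ribosyltransferase, stood at 0.35 and 8.84 TPM. Xlr3a and Xlr3b, near-identical X-linked genes of lymphoid and germ cells, stood at 0.03 and 10.5 TPM and at 0 and 10.3 TPM, and are uncertain because reads can be split between copies. The largest difference of any gene was that of Gm4737, chosen after its values were seen, at 3.4 and 417 TPM, on counts that were not whole and hence shared with other sequences. The highest of the 5 other libraries for these 49 genes was the GFP-positive mES library in 13, the GFP-positive 5C library in 11, the naive-medium one in 6, and a GFP-negative one in the rest. Over all genes compared, these libraries held the highest level in 19.7%, 14.5%, 12.1% and 53.7%, in the same order.

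Epithelial genes as a group were higher in 5C-Oct4GFP+ (primed). All 24 compared had a difference above 0, and the median difference was 0.87, against -0.02 over all genes compared. Of the 24, 10 (41.7%) were called higher and none lower, against 1.49% and 3.36% of all genes compared. Krt19, a keratin of simple epithelia, stood at 54.5 TPM in 5C-Oct4GFP+ (primed) and 8.93 TPM in R1 ESCs-primed, 6.10-fold higher (4.33 to 8.84). The tight junction gene Cldn7 stood at 151 and 56.1 TPM, 2.70-fold (2.32 to 3.15), and Krt7, a keratin also of trophoblast, at 14.5 and 4.59 TPM. Krt8, the partner of Krt18, stood at 434 and 197 TPM, and Ocln, which encodes the tight junction protein occludin, at 9.83 and 3.69 TPM. The apical polarity gene Crb3, the serine protease gene Prss8, the desmosomal cadherin gene Dsg2 and the splicing regulator gene Esrp2 were the other called members. In CPM, Esrp2 was under 2-fold, with a log2 ratio of 0.82. Cdh1, which encodes E-cadherin, was below the threshold at 284 and 185 TPM, 1.53-fold (1.47 to 1.6), and Epcam, an adhesion molecule of epithelia and pluripotent cells, at 295 and 224 TPM. The members summed to 2798 TPM in 5C-Oct4GFP+ (primed) and 1508 TPM in R1 ESCs-primed, and to 1132 to 4112 TPM in the other libraries.

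Fibroblast and feeder markers were lower. Of 23 compared, 22 had a difference below 0, and the median difference was -1.36. Called lower were 15 (65.2%) and higher 1 (4.35%), Acta2, against 3.36% and 1.49% of all genes compared. Col3a1, a fibrillar collagen, stood at 19.3 TPM in 5C-Oct4GFP+ (primed) and 71.3 TPM in R1 ESCs-primed, 3.69-fold higher in the latter (3.28 to 4.16). Col6a2 and Col6a3, chains of collagen VI, stood at 6 and 26 TPM and at 16.1 and 65.0 TPM. The mesenchymal transcription factors Prrx1 and Twist1 stood at 2.95 and 13.4 TPM and at 7.73 and 23.8 TPM. Thy1, a surface marker by which fibroblasts are sorted, was not called, at 8.80 and 10.9 TPM, and Acta2, smooth muscle actin, stood at 15.2 and 5.78 TPM. Neither primed library was free of these markers, which summed to 292 TPM over the 28 members in 5C-Oct4GFP+ (primed) and 673 TPM in R1 ESCs-primed, against 98.7 TPM in the naive-medium library, 143 and 248 TPM in the GFP-positive libraries of mES and 5C, and 2782 and 1581 TPM in their GFP-negative libraries. In each primed library 1 member was listed at 0. In a bulk library fewer cells of a type and less RNA per cell cannot be told apart. The plot of both lists sets each gene's levels side by side.

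**Figure D3:**
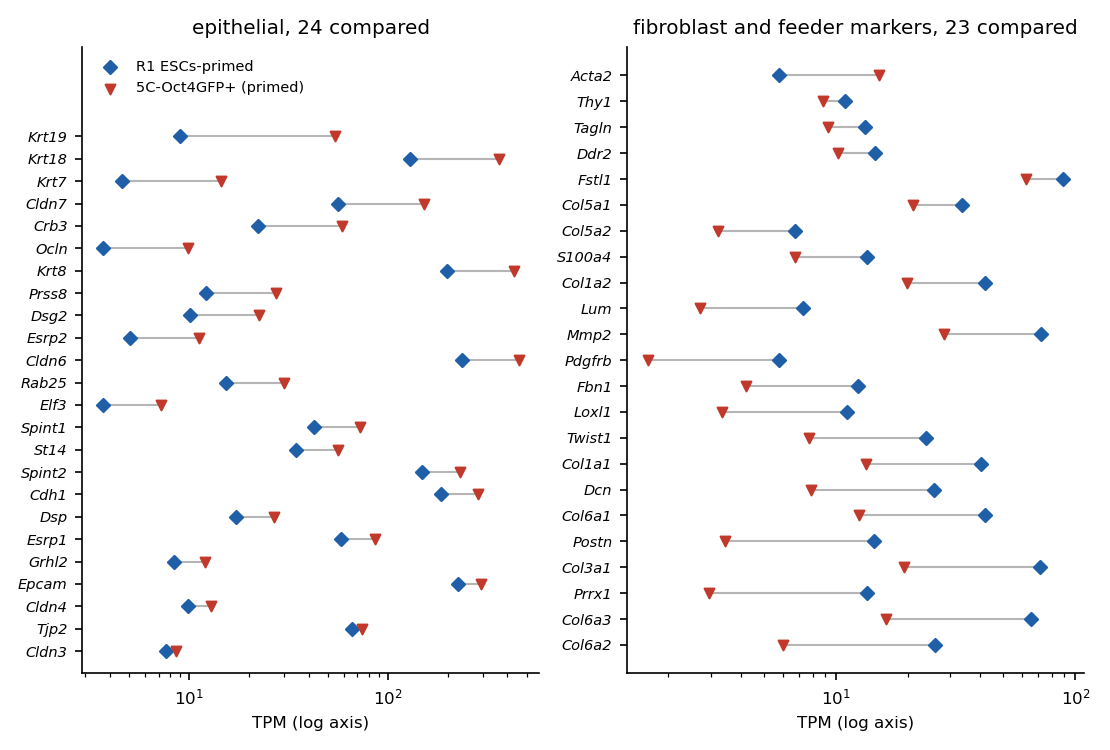
TPM (log axis) of the 24 epithelial genes (left) and 23 fibroblast and feeder markers (right) compared, ordered by difference, with 1 value for each library. On the left all red triangles of 5C-Oct4GFP+ (primed) lie to the right of the blue diamonds of R1 ESCs-primed, and on the right they lie to the left in 22 of 23 genes.

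The wider mesenchymal and EMT list had 7 lower (24.1%) and 2 higher (6.90%) genes of 29, against 3.36% and 1.49% of all genes compared. Its median difference was -0.47. Cdh11, a mesenchymal cadherin, stood at 9.96 and 33.3 TPM, and Zeb1, a repressor of epithelial genes, at 3.65 and 12.9 TPM, 3.53-fold higher in R1 ESCs-primed. Cdh2, which encodes N-cadherin and is part of the primed state itself, was alike at 81.7 and 93.1 TPM. Vim and Fn1, which encode vimentin and fibronectin, lay below the threshold with differences of -0.86 and -0.94. The called higher genes were Acta2 and Ccn1, a matrix protein gene induced by YAP, at 118 and 51.5 TPM. Snai2, Twist1, Twist2, Tagln, Acta2 and Mmp2 are members of the fibroblast list too, whose part in the lower values was not tested.

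Genes of the primitive streak and early endoderm were expressed in both libraries, at levels that differed by gene rather than as a group. Of 18 mesendoderm genes, 1 (5.56%) was higher and 3 (16.7%) lower, against 1.49% and 3.36% of all genes compared. The median difference was -0.38, and it was 0.24 in FPKM with fewer genes. T, which encodes Brachyury and marks the primitive streak, stood at 155 TPM in 5C-Oct4GFP+ (primed) and 374 TPM in R1 ESCs-primed, 2.41-fold higher in the latter (2.26 to 2.57). Mixl1, a homeobox gene of the streak, stood at 16.1 and 36.5 TPM, and Evx1, a posterior streak gene, at 1.08 and 5.08 TPM. Cer1, a secreted Nodal and BMP antagonist of the anterior endoderm, went the other way at 497 and 178 TPM, 2.78-fold higher in 5C-Oct4GFP+ (primed) (2.61 to 2.97). Foxa2, Eomes and Gsc, transcription factors of the anterior streak, were not called, at 82.9 and 106 TPM, 81.2 and 115 TPM and 107 and 92.5 TPM. Hhex and Sox17, of anterior and definitive endoderm, lay below the threshold with differences of 0.97 and 0.76. The naive-medium library held 14.5 TPM of T, 0.26 TPM of Cer1 and 0.11 TPM of Foxa2.

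Among the 20 largest increases were 2 homeobox genes of the anterior head. Hesx1, which is needed for forebrain and pituitary, stood at 19.8 and 2.43 TPM, 8.13-fold higher in 5C-Oct4GFP+ (primed) (4.29 to 17.4), and at 0.22 to 7.43 TPM elsewhere. Rax, a gene of the eye field, stood at 6.10 TPM with no count in R1 ESCs-primed, at least 12.5-fold higher. Klhl4, an X-linked gene of the Kelch family, stood at 63.1 and 11.3 TPM and at 0 to 1.18 TPM in the 5 other libraries. Pttg1, which encodes securin, the inhibitor of separase, stood at 238 and 39.5 TPM, 6.03-fold higher (4.90 to 7.49), against 67.4 to 306 TPM in the others, so R1 ESCs-primed was the lowest of the 7. Tom1, an endosomal trafficking gene, stood at 23.5 and 2.82 TPM.

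Neural genes were mostly lower where they were called. Of 11 compared, 5 (45.5%) were lower, against 3.36% of all genes compared, and none higher. The median difference was -0.65, and the other 11 members stayed below 5 TPM. In FPKM, with fewer genes, the median of this list was 0.0029. Pax6, a regulator of eye and neural tissue, stood at 0.11 TPM (2 counts) and 5.48 TPM, 49.5-fold higher in R1 ESCs-primed (12.5 to 428). Its effective length differed by 1.11 on the log2 scale, and without length it stood at 0.174 and 3.90 CPM. Crabp1, which binds retinoic acid in the cytoplasm, stood at 38.6 and 141 TPM, and Fabp7, a fatty acid carrier of radial glia, at 5.00 and 16.7 TPM. Zic1 stood at 0.89 and 5.23 TPM and Ncam1, a neural adhesion molecule, at 4.61 and 11.5 TPM. Pax6, Zic1 and Ncam1 reached 5 TPM only in R1 ESCs-primed, so the minimum itself fixed the sign of their differences. Nes and Tubb3, which encode nestin and a neuronal tubulin, lay above 0 but below the threshold, at 112 and 80.2 TPM and at 52.4 and 37.2 TPM. Igfbp5, a binding protein of insulin-like growth factors, and Penk, the enkephalin precursor, were among the 20 largest decreases, at 6.88 and 85.1 TPM and at 1.16 and 25.4 TPM. Each of these 7 lower genes had its highest level among the 5 other libraries in a GFP-negative one, and the part of such cells in these differences was not tested. The Hox genes were low in both libraries, with 37 of 39 below 5 TPM and the remaining 2, Hoxa9 and Hoxc6, lower at 1.05 and 5.47 TPM and at 1.27 and 5.17 TPM. Hoxa9 and Hoxc6 reached 5 TPM only in R1 ESCs-primed, so the minimum itself fixed the sign of their differences. Over the whole Hox list the summed level was 10.4 TPM with 11 genes at 0 in 5C-Oct4GFP+ (primed), and 58.9 TPM with 1 gene at 0 in R1 ESCs-primed.

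In the Nodal pathway, 1 of 24 genes (4.17%) was higher and 4 (16.7%) lower, with a median difference of -0.11. Among all genes compared 1.49% were higher and 3.36% lower. The ligand gene Nodal stood at 70.1 and 77.0 TPM and its feedback inhibitor Lefty1 at 564 and 715 TPM, neither called. Lefty2, a second inhibitor, stood at 55.4 and 21.5 TPM, 2.58-fold higher in 5C-Oct4GFP+ (primed) (2.21 to 3.03). Besides Gdf3, the lower genes were Inhba and Inhbb, whose products form activins, at 1.75 and 5.36 TPM and at 2.17 and 7.52 TPM, and Fst, which encodes the activin antagonist follistatin, at 32.5 and 74.3 TPM. Gdf3, Inhba and Inhbb reached 5 TPM only in R1 ESCs-primed, so the minimum itself fixed the sign of their differences. Ligand, antagonist and inhibitor genes thus did not share a direction. The co-receptor gene Tdgf1, the receptor genes Acvr1b and Acvr2b and the effector genes Smad2 and Foxh1 all differed by less than 2-fold.

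Of 15 BMP pathway genes, none was higher and 2 (13.3%) were lower, against 3.36% lower among all genes compared. The 2 were the ligand gene Bmp4 at 2.71 and 8.44 TPM and the antagonist gene Grem1 at 4.80 and 12.6 TPM. Both reached 5 TPM only in R1 ESCs-primed, so the minimum itself fixed the sign of their differences. The BMP target genes Id1, Id2 and Id3 were not called, at 69.0 and 68.6 TPM, 31.6 and 35.4 TPM and 114 and 84.4 TPM. Of 31 Wnt genes, 1 (3.23%) was higher and 4 (12.9%) lower, against 1.49% and 3.36% of all genes compared, with a median difference of -0.31. T is a member of this list too. Sp5 and Nkd1, targets of beta-catenin, stood at 13.2 and 28.9 TPM and at 3.22 and 8.86 TPM, and Wnt5a, a non-canonical ligand gene, at 3.96 and 9.37 TPM. For Nkd1 and Wnt5a, which reached 5 TPM only in R1 ESCs-primed, the minimum likewise fixed the sign. The receptor gene Fzd5 stood at 51.6 and 24.5 TPM, 2.10-fold higher in 5C-Oct4GFP+ (primed) (1.92 to 2.31). Axin2, a common measure of the pathway, was below the threshold at 10 and 17.6 TPM, against 105 TPM in naive medium. The methods name a GSK3 inhibitor and a tankyrase inhibitor for the R1 cells and only primed medium for the 5C-Oct4GFP+ (primed) cells. Whether the media differed is thus not known here, and medium and origin cannot be told apart. No gene of 27 in the list of FGF ligands, ERK targets and immediate early genes was called, near the 4.85% of all genes compared. The median difference of this list was -0.16.

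The plot of all 33 gene lists orders them by their median difference, and 8 lists had a median of at least 0.5 in size. A gene that reached 5 TPM in only 1 library had the sign of its difference fixed by that minimum. This held, among others, for the 2 Hox genes and for part of the naive list, so the sign of those medians was set in full or in part by the minimum. It also held for called members of other lists, such as Krt7, Ocln, Prrx1, Zeb1, Evx1, Airn, Peg12, Asb4, Trim25, Ifi27, Pmaip1, Gpx3 and Gsta3.

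**Figure D4:**
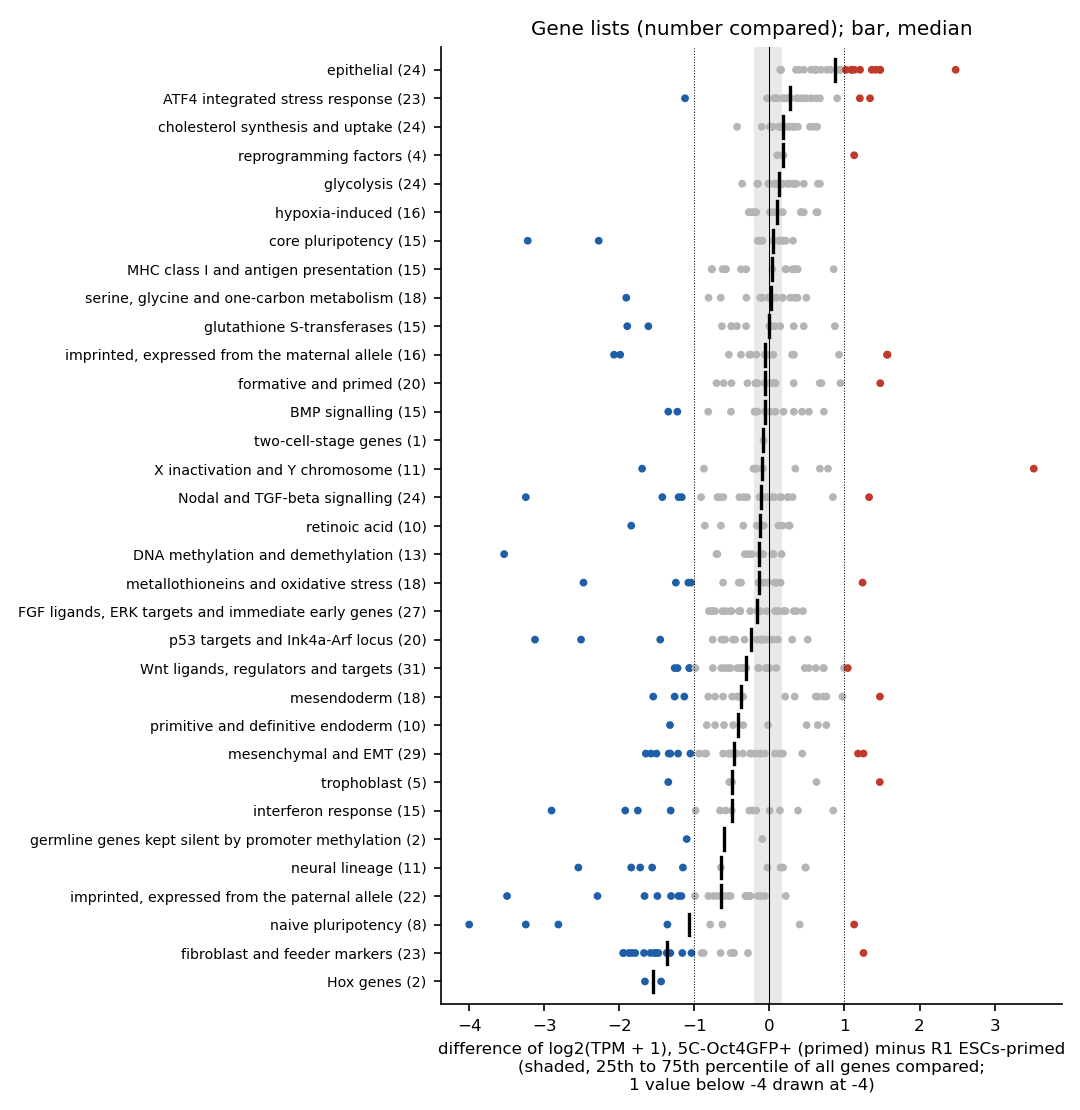
Difference of log2(TPM + 1) for each gene compared (points) in 33 gene lists, with the number compared in parentheses, ordered by median (bar). Red and blue points passed the dotted lines at 1 and -1, and the shaded band holds the middle 50% of all 11017 genes. The epithelial list stands at the top with a median of 0.87, and the fibroblast, naive and Hox lists at the foot with medians of -1.36, -1.07 and -1.55. The Hox median rests on 2 genes that reached 5 TPM only in R1 ESCs-primed.

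Imprinted genes are those of which 1 parental copy is silent. Of 22 genes expressed from the paternal copy, 7 (31.8%) were lower, against 3.36% of all genes compared, and none higher. The median difference was -0.65, with 21 of 22 below 0. Nnat, which encodes the small membrane protein neuronatin, stood at 27.2 TPM in 5C-Oct4GFP+ (primed) and 318 TPM in R1 ESCs-primed, 11.7-fold higher in the latter (9.98 to 13.7), and at 3.47 to 223 TPM in the other libraries. Airn, the RNA that silences the paternal Igf2r cluster, stood at 2.84 and 17.8 TPM, Peg12 at 1.49 and 6.89 TPM and Dlk1, a membrane ligand related to Notch ligands, at 34.5 and 98.9 TPM. Peg10, Slc38a4 and Impact completed the 7. Igf2, the growth factor, just missed the threshold at 64.4 and 129 TPM, a difference of -0.99. Peg3, Snrpn, Snurf and Ndn were not called, with differences of -0.31 to -0.06.

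Of 16 genes expressed from the maternal copy, 2 (12.5%) were higher and 2 (12.5%) lower, with a median difference of -0.06. The shares of all genes compared were 1.49% and 3.36%. H19, the RNA made from the maternal copy beside Igf2, stood at 70.0 and 281 TPM, 4.01-fold higher in R1 ESCs-primed (3.69 to 4.36), and Cdkn1c, a cell cycle inhibitor, at 13.2 and 58.8 TPM. Grb10, which encodes an adaptor of the insulin receptor, stood at 302 and 101 TPM, 2.98-fold higher in 5C-Oct4GFP+ (primed) (2.84 to 3.14), and Asb4 at 11.8 and 3.29 TPM. Meg3 and Rian, non-coding RNAs of the Dlk1 cluster, were present in both libraries, at 561 and 730 TPM and at 1000.4 and 1204 TPM. H19, Igf2, Dlk1, Cdkn1c and Nnat were at least 10 times higher in mES-Oct4GFP- than in mES-Oct4GFP+ or the naive-medium library, as the fibroblast markers were, and the part of such cells in these differences was not tested.

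Genes of the Y chromosome were counted in both libraries. Uty stood at 14.2 and 15.2 TPM, Ddx3y, an RNA helicase gene, at 33.8 and 19.23 TPM and Eif2s3y, a translation factor gene, at 63.3 and 39.4 TPM, none of them called. Kdm5d, which encodes a histone H3K4 demethylase (chromosome Y, 897788 to 956786, plus strand, GRCm38), was the largest increase among the named genes, at 19.9 TPM in 5C-Oct4GFP+ (primed) and 0.82 TPM in R1 ESCs-primed, 24.2-fold higher (15.6 to 39.1). The 5 other libraries, all of OG2 origin, held 8.79 to 12.6 TPM, so R1 ESCs-primed stood alone with a low value. Its counts, 600.65 and 20.79, were not whole, which means that reads were shared with other sequences. Kdm5c, its X-linked relative, stood at 83.4 and 65.5 TPM. Xist, the RNA of the inactive X chromosome, was low in both at 5.36 and 19.6 TPM, against 258 TPM in mES-Oct4GFP- and 114 TPM in 5C-Oct4GFP-, and its level was 3.66-fold higher in R1 ESCs-primed (3.14 to 4.30). Kdm6a, the X-linked relative of Uty, lay below the threshold at 16.6 and 31.2 TPM.

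Cdkn2a and Cdkn2b at the Ink4a-Arf locus and the p53 target gene Pmaip1 were lower in 5C-Oct4GFP+ (primed). Cdkn2a, which encodes the cell cycle brakes p16 and p19, stood at 12.1 and 73.5 TPM, 6.08-fold higher in R1 ESCs-primed (4.58 to 8.19), and at 32.8 to 236 TPM elsewhere, so 5C-Oct4GFP+ (primed) was the lowest of the 7 libraries. Its neighbour Cdkn2b stood at 19.6 and 55.5 TPM. Pmaip1, which encodes the pro-death protein Noxa, stood at 2.35 and 28.2 TPM, 12.0-fold higher in R1 ESCs-primed (8.53 to 17.3). These were the 3 lower genes of 20 (15%, against 3.36% of all genes compared), none was higher, and the median difference was -0.25. Trp53 itself was alike at 333 and 323 TPM, and Cdkn1a and Mdm2, targets of p53, lay below the threshold at 95.9 and 163 TPM and at 102 and 155 TPM.

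Interferon-response genes had 4 of 15 (26.7%) lower, against 3.36% of all genes compared, and none higher, with a median difference of -0.50. Bst2, which tethers virus particles, stood at 23.2 and 180 TPM, 7.76-fold higher in R1 ESCs-primed (6.25 to 9.71). Trim25, a ubiquitin ligase gene of RNA sensing, stood at 0.78 and 5.74 TPM against 46.0 to 87.1 TPM in the 5 other libraries, so it was low in both primed libraries and lowest in 5C-Oct4GFP+ (primed). Ifitm3, which restricts virus entry, stood at 54.4 and 186 TPM, and Ifi27 at 3.71 and 10.7 TPM. Ifitm1 and Ifitm2, close relatives of Ifitm3, were not called, at 231 and 128 TPM and at 582 and 528 TPM. No gene of 15 in the MHC class I list was called, which is near the 4.85% of all genes compared, and the median difference was 0.04.

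Oxidative stress and detoxification genes held single large differences rather than a shared one. Of 18 metallothionein and oxidative stress genes, 1 (5.56%) was higher and 4 (22.2%) lower, with a median of -0.14. Among all genes compared 1.49% were higher and 3.36% lower. Gpx3, a secreted glutathione peroxidase gene, stood at 4.49 and 29.6 TPM, 6.58-fold higher in R1 ESCs-primed (4.69 to 9.42), and Nqo1, a target of Nrf2, at 11.7 and 29.2 TPM. Srxn1, another target of Nrf2, stood at 16.7 and 36.4 TPM, while the targets Hmox1 and Gclc were not called, at 144 and 137 TPM and at 63.3 and 70.1 TPM. The fourth lower gene, Mt3, rests on few counts, and the interval of its ratio of 0.408 ran from 0.145 to 1.08. Gpx2, an epithelial glutathione peroxidase gene, went the other way at 17.4 and 6.8 TPM. Of 15 glutathione S-transferase genes 2 (13.3%) were lower, Gstp1 at 49.6 and 154 TPM and Gsta3 at 0.8 and 5.69 TPM, with a median difference of -0.00.

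In the metabolic lists, no gene of 24 for cholesterol synthesis and uptake, 24 for glycolysis or 16 induced by hypoxia was called, with medians of 0.18, 0.13 and 0.10. Of all genes compared only 4.85% were called, so the lack of calls in lists of this size is near that share. Of the 24 cholesterol genes 22 had a difference above 0, such as the cytochrome gene Cyp51 at 146 and 100 TPM and the phosphomevalonate kinase gene Pmvk at 151 and 99.8 TPM. The glycolytic genes Gapdh, at 11903 and 11873 TPM, and Ldha, at 3279 and 2770.0 TPM, differed by less than 1.2-fold. In the ATF4 list, 2 of 23 (8.70%) were higher and 1 (4.35%) lower, against 1.49% and 3.36% of all genes compared, with a median of 0.28. The higher were Trib3, a pseudokinase gene, at 35.6 and 13.4 TPM and Chac1, which degrades glutathione, at 19.3 and 7.81 TPM. The lower was the cystathionine lyase gene Cth at 14.4 and 32.6 TPM. Among the serine, glycine and one-carbon genes Tdh alone of 18 (5.56%) was called, near the 4.85% of all genes compared. Of 10 retinoic acid genes Crabp1 alone (10%) was called, against 4.85% of all genes compared. Cyp26a1, which degrades retinoic acid, stood at 132 and 110 TPM.

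A set of chromatin regulators differed little. Bmi1, of Polycomb complex 1, stood at 11.6 and 14.3 TPM, Ezh2, the methyltransferase of Polycomb complex 2, at 149 and 152 TPM, and the architectural protein gene Ctcf at 121 and 128 TPM. Kdm2b, a demethylase that binds CpG islands, stood at 69.7 and 76.4 TPM and Wdr5, a subunit of H3K4 methyltransferases, at 143 and 130 TPM. The largest of these 5 ratios in either direction was that of Bmi1, 0.811 (0.620 to 1.06). Of 13 genes for DNA methylation and demethylation, Dnmt3l alone (7.69%) was called, against 4.85% of all genes compared, with a median of -0.14. Nnt, the mitochondrial transhydrogenase gene that some mouse strains lack, was present in both at 21.5 and 28.2 TPM.

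The endoderm, trophoblast, two-cell-stage and germline lists each held at most 1 called gene in each direction. Of 10 endoderm genes compared 1 (10%) was lower, against 3.36% of all genes compared. It was Col4a2, a basement membrane collagen gene, at 10.6 and 28.2 TPM, and Gata6 and Sox17 were not called. Of 5 trophoblast genes 1 (20%) was higher, Krt7, and 1 (20%) lower, Bmp4, against 1.49% and 3.36% of all genes compared. Each of these 2 genes reached 5 TPM in only 1 library, so the minimum itself fixed its sign. The 8 other members stayed below 5 TPM in both, 2 of them at 0 in 5C-Oct4GFP+ (primed), against 1 in R1 ESCs-primed. Of 18 genes of the two-cell stage 1 was compared, Eif1a, which was not called, and 11 were at 0 in 5C-Oct4GFP+ (primed), against 6 in R1 ESCs-primed. Of 27 germline genes, 24 stayed below 5 TPM in both libraries, and 12 of the list were at 0 in 5C-Oct4GFP+ (primed), against 6 in R1 ESCs-primed.

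The place of each primed library among all 7 was read for the called genes, with genes named here chosen after their values were seen. In 118 of the 370 lower genes (31.9%) 5C-Oct4GFP+ (primed) was the lowest of the 7 libraries, against 10.8% of all genes compared. R1 ESCs-primed was the highest of the 7 in 114 of the lower genes (30.8%), against 13.1% of all. In 77 of the 164 higher genes (47.0%) 5C-Oct4GFP+ (primed) was the highest, against 13.7% of all, and in 35 (21.3%) R1 ESCs-primed was the lowest, against 7.93%. These shares follow in part from the calls themselves, since a called gene has the 2 libraries apart. At 2-fold or more from every other library, 5C-Oct4GFP+ (primed) lay below in 70 genes and above in 28, and R1 ESCs-primed lay above in 47 and below in 15.

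Genes that R1 ESCs-primed held above every other library included proteases of the extracellular matrix. Mmp3, which encodes stromelysin, stood at 74.4 TPM in R1 ESCs-primed, 32.9 TPM in 5C-Oct4GFP+ (primed) and 0 to 2.30 TPM elsewhere. Mmp12 and Mmp9 stood at 16.9 and 15.2 TPM in R1 ESCs-primed, against 4.54 and 5.98 TPM in 5C-Oct4GFP+ (primed), and Plau, which encodes urokinase, at 30.7 against 8.33 TPM. Tnc, which encodes the matrix protein tenascin C, stood at 69.3 against 17.6 TPM and Apln, the ligand of the apelin receptor, at 43.8 against 20.8 TPM. In the GFP-negative libraries these 6 genes stood at no more than 27.9 TPM.

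Genes that 5C-Oct4GFP+ (primed) held above every other library included Enpp2, which encodes the lysophospholipase autotaxin, at 115 TPM against 54.0 TPM in R1 ESCs-primed and 0.21 to 33.7 TPM elsewhere. Tubb4a, a neuronal tubulin gene, stood at 52.1 against 17.7 TPM and Ikzf1, which encodes the lymphoid factor Ikaros, at 18.1 against 8.05 TPM. Genes that it held below every other library included Hexa, the lysosomal hexosaminidase gene, at 21.6 TPM against 48.9 TPM in R1 ESCs-primed and 56.6 to 96.5 TPM elsewhere. Aim2, a sensor of cytosolic DNA, stood at 3.74 against 13.6 TPM, and at 25.4 to 99.3 TPM elsewhere. Rhox5, an X-linked homeobox gene, stood at 2.69 against 10.1 TPM, and at 913 TPM in naive medium. For Hexa and Aim2 the primed libraries were the lowest of the 7, and for Rhox5 mES-Oct4GFP-, at 8.81 TPM, lay between them.

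For the highest level among the 5 libraries outside the comparison, a GFP-negative library held it in 240 of the 370 lower genes (64.9%), in 102 of the 164 higher genes (62.2%) and in 5918 of all 11017 (53.7%). Both directions thus stood above the share of all genes. Without the genes whose highest level lay in a GFP-negative library, a setting chosen once these values were known, 130 lower genes (2.55%) and 62 higher genes (1.22%) remained.

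Over chromosomes, the median difference of genes with at least 5 TPM in both libraries lay between -0.04 and 0.04 for the X chromosome and every autosome other than 8. On chromosome 8 it was -0.11 over 569 genes, of which 374 (65.7%) had a difference below 0, against 44.1% to 59.7% on the other autosomes and the X chromosome. With at least 20 TPM in both libraries, 361 genes of chromosome 8 had a median of -0.10. When each primed library was set against each of the 5 others, over 478 genes of chromosome 8 with at least 5 TPM in all 7, the median of R1 ESCs-primed lay 0.06 to 0.10 above that of all genes, and the median of 5C-Oct4GFP+ (primed) lay within -0.02 to 0.02 of it. Chromosome 8 of R1 ESCs-primed lay above every other autosome against mES-Oct4GFP- (0.097, with 0.081 the highest other) and against 5C-Oct4GFP- (0.097, with 0.084 the highest other). Against the 3 other libraries at least 1 other autosome lay higher, at 0.11 to 0.14. Of the 569 genes, 10 were called lower and 3 higher.

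**Figure D5:**
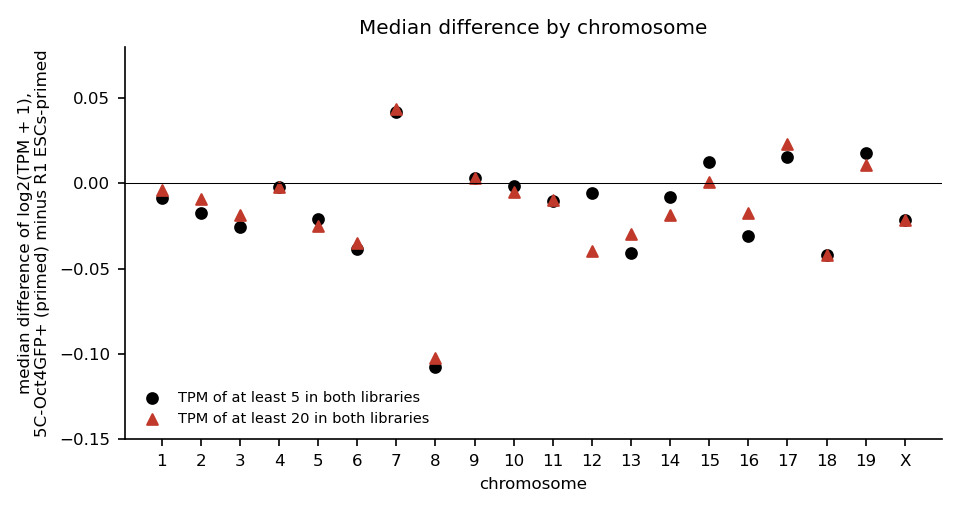
Median difference of log2(TPM + 1), 5C-Oct4GFP+ (primed) minus R1 ESCs-primed, for each chromosome (x axis), over genes with at least 5 TPM (black circles) or 20 TPM (red triangles) in both libraries. Chromosome 8 lies at -0.11 and -0.10, and the other autosomes and the X chromosome lie between -0.04 and 0.04 at the lower minimum.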

How the data were processed

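RNA-seq libraries (TruSeq v2 mRNA kit, MiSeq), 1 for each of 7 groups named from the labels, were aligned and quantified by the authors with Bowtie and RSEM on mm10, as their processing notes list. Versions and annotation are not given in the sources used here. As deposited, the expected count of a gene is the number of reads that RSEM assigned to it, which need not be whole. The deposited TPM values are RSEM's reads per effective length scaled to a common total, so a TPM difference can also come from the effective length. The deposited FPKM values were used only as an alternative.

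From these, log2(TPM + 1) was compared between the 2 primed libraries for genes of at least 5 TPM in either, with a 2-fold difference as the call. Intervals of TPM ratios are exact (Clopper-Pearson, 95%) on counts rounded to whole numbers and cover counting error only. Where a library had no count, 3 counts in that library were the floor. Symbols and coordinates were those of GENCODE M21 (GRCm38), matched by Ensembl ID for 28756 of 29267 genes. The genes named were the 20 largest increases and the 20 largest decreases with an established symbol, up to 4 called members per list and direction, and a set of anchor genes, besides uncalled members; other called members were chosen after their values were seen. Gene lists and the genes compared were chosen with earlier results of these data known. R 4.3.3 with edgeR 4.0.16 (TMM factors only) and Python 3.11.15 with scipy 1.17.1, pandas 2.3.3, numpy 2.4.6 and matplotlib 3.10.9 were used, and the calls were tested on simulated data. Alternatives were other pseudocounts, minimum levels, scalings, FPKM, a thinned library and, chosen after seeing the data, leaving out genes highest in an Oct4GFP- library.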

Additional observations from a re-analysis of the deposited data

How the results depend on the processing

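The number of genes called depended on the minimum level. At a minimum of 1 TPM, 336 genes were higher and 743 lower, and at 10 TPM 213 were lower. In FPKM with a minimum of 5, which keeps fewer genes, 108 were higher and 203 lower, 4 gene lists rather than 8 had a median of at least 0.5 in size, and the median of the neural list was 0.0029, against -0.65 in TPM. The mesendoderm and trophoblast medians also changed sign in FPKM, to 0.24 and 0.45, as did the BMP, MHC class I and glutathione S-transferase medians, all within 0.1 of 0, and no Hox gene was left. Without genes highest in an Oct4GFP- library, chosen after seeing the data, 62 were higher and 130 lower. A pseudocount of 0.1, rescaling by the median ratio, TMM factors on CPM, thinning of the deeper library and requiring the interval to leave out 1 gave 151 to 213 higher and 316 to 436 lower genes. In CPM with a pseudocount of 0.1 and no TMM factors, 17 of the 164 higher and 28 of the 370 lower genes were under 2-fold. None of the differences of 523 named genes changed sign past the threshold in the 5 settings recomputed for them. Calls did fall below the threshold for 9 of these genes in FPKM, 3 with TMM factors on CPM and 1 in the thinned library. Uncalled genes newly passed it for 8 with a pseudocount of 0.1, 8 in the thinned library, 7 with TMM factors and 1 after rescaling by the median ratio. No paired analysis was possible because each group holds 1 library. Single libraries limit every value to these 2 libraries.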
